A study of Mus musculus with 2 samples.

Results

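The block described here is a 2-Mb stretch of distal mouse chromosome 4 (mm9 build), known for a cluster of zinc finger genes, which holds a crowded run of regions with more H3K4me3 tags in Mll-PTD than in wild-type cells. Its members are the deposited regions on chromosome 4 that start from 145000000 to 146999999, and they number 424 of 41561 in the whole list (1.02%) and of 2882 on chromosome 4 (14.7%). The stretch was picked because regions crowd there, and every listed region had already been called for a higher Mll-PTD tag count. Crowding, tag counts and ratios are therefore given as descriptions and carry no test.

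Chromatin immunoprecipitation with the antibody ab8580, followed by sequencing, measured H3K4me3, the trimethylated form of lysine 4 of histone H3 found at active and poised promoters. One group is wild-type (WT) C57BL/6 mice, and the other is C57BL/6 mice heterozygous for the Mll-PTD knock-in, a partial tandem duplication within Mll (now Kmt2a), which encodes an H3K4 methyltransferase. Both groups are bone marrow cells concentrated on CD117 beads and then on Sca1, labelled LSK, a population rich in haematopoietic stem and progenitor cells. Each genotype has 1 library, and the number, age and pooling of the mice are not given in the sources used here. The knock-in allele is carried by all cells of these mice, and whether their bone marrow differed from WT in cell types was not tested. Gene positions of mm9 were not used here, so the LSK label was not checked against marker genes.

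KRAB zinc finger genes encode DNA-binding repressors that carry a KRAB domain and a row of C2H2 zinc fingers, and many of them bind and silence transposable elements. They lie in clusters that grew by repeated local duplication, so neighbouring members and the sequence around them can be nearly identical. The cluster of distal mouse chromosome 4 is known for such recent duplications and for differences in copy number between mouse strains.

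The zinc finger name comes from the label of the stretch and from the gene order in RefSeq, read from the GRCm38.p6 build, whose positions were not set beside the mm9 regions. Between Tnfrsf8, a receptor gene of the tumour necrosis factor family, and Miip, RefSeq lists 82 genes and pseudogenes on chromosome 4. Of these, 19 are protein coding and 56 are pseudogenes, of which 6 are vomeronasal receptor pseudogenes, and 7 are noncoding RNA genes. The protein-coding genes include 16 with a Zfp name, among them Zfp600, Zfp979, Zfp980 and Zfp534, and also Rex2, Gm13212 and Gm42346. Which listed region lies at which of these genes was not analysed here.

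Promoter sequences of 5 genes are shown because they let the likeness of neighbouring copies be read directly. Each run is the 120 bases before the annotated start, 5′ to 3′ on the gene's own strand, from RefSeq (GRCm38.p6; Zfp979 on the minus strand, the other 4 on the plus strand). Capitals mark the longest run of bases that all 5 share, 16 bases that begin between 68 and 74 bases before the start.
Zfp600: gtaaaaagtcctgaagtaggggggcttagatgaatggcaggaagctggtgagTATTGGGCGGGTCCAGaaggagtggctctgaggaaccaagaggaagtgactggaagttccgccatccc
Rex2: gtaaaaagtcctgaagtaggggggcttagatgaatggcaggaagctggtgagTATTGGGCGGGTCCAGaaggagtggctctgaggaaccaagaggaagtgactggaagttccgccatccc
Zfp979: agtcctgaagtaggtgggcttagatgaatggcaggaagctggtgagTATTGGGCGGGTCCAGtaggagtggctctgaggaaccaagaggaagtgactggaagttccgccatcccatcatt
Zfp980: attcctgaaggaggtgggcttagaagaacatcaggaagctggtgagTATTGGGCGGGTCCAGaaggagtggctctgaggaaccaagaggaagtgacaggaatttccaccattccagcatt
Gm13212: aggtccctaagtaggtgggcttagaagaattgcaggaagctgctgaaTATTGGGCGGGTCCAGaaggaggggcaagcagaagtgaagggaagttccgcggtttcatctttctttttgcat
Zfp600 and Rex2 are identical over these 120 bases and 99.3% identical over the whole entry of 300 bases. Over 300 bases Zfp979 is 94.7% identical to Zfp600, Zfp980 88.3% and Gm13212 67.7%. The 19 protein-coding genes have 17 promoter entries for 14 genes. The shared run, TATTGGGCGGGTCCAG, was searched on both strands within the same 120 bases of every RefSeq entry. It occurs in 9 of 32851 entries (0.0274%), and these 9 are all among the 17, each from a different gene. The 5 genes were chosen for display after their sequences were seen, so the run is a description of the copies. It contains GGGCGG, which occurs in 11 of the 17 entries and in 26.5% of all. It also contains the reverse complement of CCAAT, a motif that occurs on either strand in 12 of the 17 entries and in 21.3% of all. The 2 short motifs overlap by 2 bases within the run. These matches describe letters and name no bound factor.

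Sequencing gave 58083118 Mll-PTD tags and, by the scaling of the deposited tags, about 43600000 WT tags. Mll-PTD tags are given below after the authors' scaling to the WT library, unless they are called unscaled. Intervals are exact 95% intervals that cover counting error only, and tags of 1 library are not independent molecules. Spread evenly over the genome size used by the caller, the tags of either library would stand at 21.8 per kb. How reads that match several places equally well were placed is not given in the sources used here, which bears on every value from near-identical copies.

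The block held 212 regions per Mb, against 16.3 over the rest of chromosome 4. Within its 100-kb bins the count ran from 13 to 31, with a median of 21. The bins of the rest of chromosome 4 had a median of 1, and 28 of those 1510 bins reached 13. Regions covered 25.8% of the block and 1.32% of the rest of the chromosome. The crowding began near the lower edge, with 20 regions in the 1000 kb before it, and ran past the upper edge, with 40 in the next 200 kb and then 8 in the 800 kb after those. The upper limit of the window thus cuts through the crowded stretch.

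**Figure D1:**
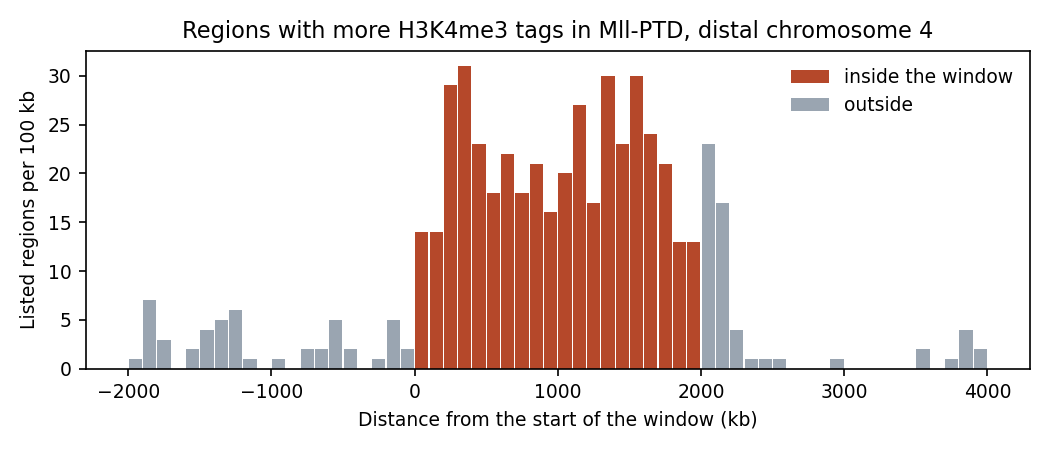
Number of listed regions per 100 kb (vertical axis) against distance from the start of the window in kb (horizontal axis), with bars inside the window in red and bars outside it in grey. All 20 bars inside hold 13 to 31 regions, and the 2 grey bars just past the upper edge belong to the 40 regions that follow it.

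Most neighbours lay close together. The median gap between regions was 1839 bases in the block and 20536 bases over the rest of chromosome 4, and 54.1% of gaps in the block were under 2000 bases, against 18.1%. Only 6 gaps of the block exceeded 20000 bases. The longest ran from 145965343 to 146026656 (61.3 kb), and the next were 57.9, 51.8 and 50.3 kb long. Tags outside the listed regions were not analysed here.

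Members were longer than other listed regions of the chromosome. Their median length was 764 bases (quartiles 500 and 1508), against 500 bases elsewhere on chromosome 4. The shortest length the caller allows, 500 bases, made up 32.5% of members and 56.0% of the others, and regions of at least 3000 bases made up 6.84% (29 regions) and 2.48%. Tag density was also somewhat higher in both libraries. The median member held 57.0 Mll-PTD tags per kb and 8.13 WT tags per kb, and the median region of the rest of chromosome 4 held 49.6 and 6.70. The WT level of the members was therefore below the even level of 21.8 per kb and the Mll-PTD level above it. The caller's score of the tallest peak had a median of 37 against 33, and 40.8% of members scored at least 40 against 17.5% of the others. The clonal fold, the caller's measure of tags stacked at the same position, had a median of 0.77 against 0.73 and was above 1 in 1 member.

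The ratio of Mll-PTD to WT tags had the same middle as elsewhere on the chromosome. With 1 tag added to each side, the median log2 ratio was 2.64 in the block (quartiles 2.30 and 3.15), 2.64 over the rest of chromosome 4, 2.69 over the other autosomes and 2.68 over the whole list. Summed tags gave a lower ratio in the block, at 6.79 (6.59 to 7.0), against 7.66 (7.53 to 7.79) over the rest of chromosome 4 and 7.79 (7.75 to 7.82) over the other autosomes. Elsewhere in the list, 4 other crowded stretches, on chromosomes 14, 7, 5 and 12, had summed ratios of 8.67 to 9.77. The intervals of the block and of those stretches do not overlap, but with 1 library per genotype this is no test between genotypes.

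Taken over all lengths, fewer members were extreme in the ratio. A ratio of at least 8 in the authors' deposited fold was reached by 162 members (38.2%, 33.6% to 43.0%), where 47.0% of the whole list and 44.4% of the rest of chromosome 4 reached it. With regions that had no WT tag set at 3 tags, 154 members (36.3%) reached it, against 43.3% of the list. No WT tag was found in 28 members (6.60%, 4.43% to 9.40%), against 12% over the rest of chromosome 4 and 13.5% over the list. Of those 28, 25 were 500 bases long, and at that length the share was not lower than elsewhere on chromosome 4. Since the ratio chose the list, nothing is read from these shares beyond their size.

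**Figure D2:**
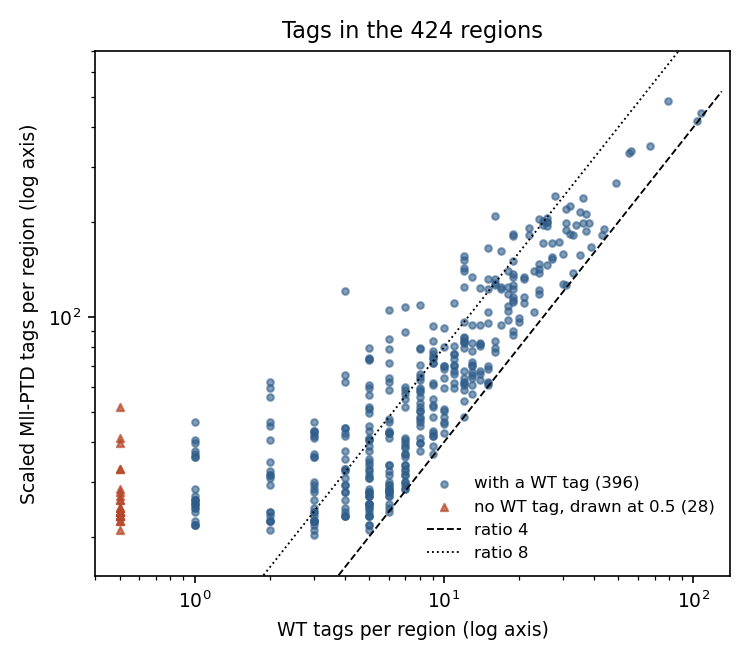
Scaled Mll-PTD tags (vertical) against WT tags (horizontal) in each of the 424 members, both on log axes, with lines at ratios of 4 and 8 and the 28 members without a WT tag drawn as triangles at 0.5. The members stop at the line of ratio 4, which the caller required, and the 6 with the most tags lie between the lines of 4 and 8.

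The gap in summed ratio to the rest of the chromosome was found in some length classes and not in others. Regions of 500 bases had a summed ratio of 7.79 (7.11 to 8.55) in the block and 7.38 (7.16 to 7.59) elsewhere on chromosome 4. No WT tag was found in 18.1% of them (12.1% to 25.6%) against 14.96% (13.1% to 16.95%), and 44.2% reached 8-fold against 42.3%. Longer regions of up to 1000 bases had a summed ratio of 6.95 (6.48 to 7.46) against 8.49 (8.17 to 8.81). No WT tag was found in 1.63% of these longer regions against 12.8%. Regions over 1000 and up to 2000 bases had 7.25 (6.81 to 7.72) against 7.52 (7.26 to 7.80), and 43.0% of them reached 8-fold against 44.4%. In regions over 2000 bases the ratio was 6.24 (5.96 to 6.53, 70 regions) against 7.42 (7.13 to 7.72, 119 regions), and 22.9% of them reached 8-fold against 43.7%. The intervals of the summed ratio overlapped in the first and the third of these classes and not in the other 2.

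Along the block the summed ratio was lowest in the bin from 1700 to 1800 kb after the start of the window, at 5.19 (4.72 to 5.71), and highest in the first 100 kb, at 12.3 (9.09 to 17). The low bin holds 3 of the 6 members with the most tags, and without the 2 of lowest ratio among them it stood at 5.95 (5.27 to 6.74). In the first 100 kb, 7 of 14 regions had no WT tag, against 21 of the other 410 members (5.12%), and 8 of the 14 were 500 bases long. Without those 14 regions the block stood at 6.74 (6.53 to 6.95).

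**Figure D3:**
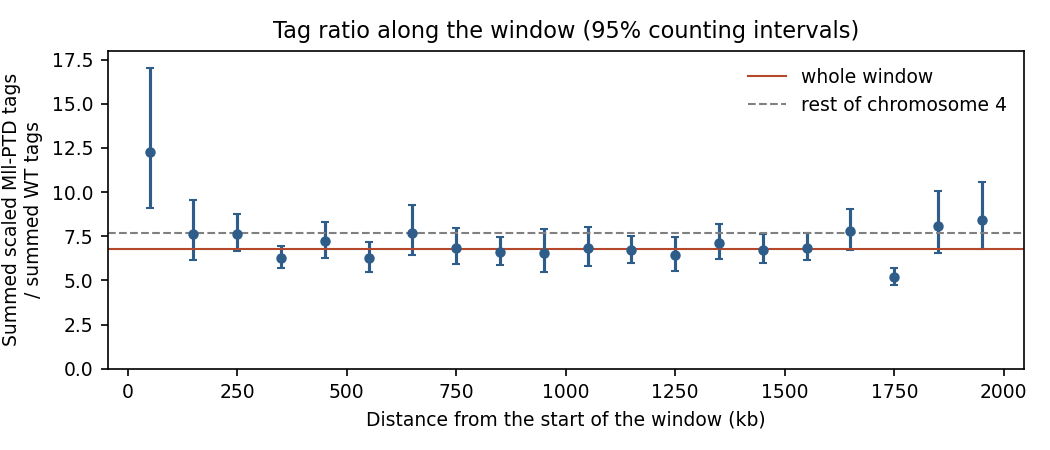
Summed scaled Mll-PTD tags over summed WT tags (vertical axis) in each 100-kb bin, by distance from the start of the window in kb, with exact 95% counting intervals as bars, the whole block as a solid line and the rest of chromosome 4 as a dashed line. The first bin stands at 12.3 and the bin at 1700 kb at 5.19, and the other 18 bins lie between them.

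The members with the most tags were long regions of modest ratio. The region chr4:146131270-146138675 held 486 Mll-PTD tags and 79 WT tags, a ratio of 6.15 (4.87 to 7.88). The region chr4:146723783-146731369, the longest member at 7586 bases, held 445 Mll-PTD and 107 WT tags (4.16, 3.38 to 5.16). Its neighbour chr4:146714354-146721001 held 419 and 103 (4.07, 3.29 to 5.07). These 2 neighbours carried the highest WT counts of the 6 and ratios just above the caller's limit of 4, at 14.1 and 15.5 WT tags per kb. The region chr4:146742224-146747289 followed with 349 and 67 tags (5.21, 4.02 to 6.83). The regions chr4:145857476-145863718 and chr4:146402848-146409048 held 336 and 331 Mll-PTD tags and 56 and 55 WT tags. They recur below as a pair matched by position and length.

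Ranked by the log2 ratio with 1 tag added to each side, the 5 highest members at or above the list's median of 29.3 tags had no WT tag. The region chr4:145076014-145077035 held 51.8 Mll-PTD tags, which is 17.3-fold the floor of 3 WT tags set for a count of 0. That fold leaves out counting error, and the exact interval of its ratio began lower, at 13.7. The region starting at 146355695 held 41.3 Mll-PTD tags (13.8-fold the floor, interval from 10.8), and that at 145242716 held 39.8 (13.3-fold, interval from 10.4). The regions at 145089558 and 145457424 held 33.0 each (11.0-fold, interval from 8.58). Of the 28 members without a WT tag, 25 were 500 bases long, 8 bordered another such member, and their median was 24 Mll-PTD tags, close to the lowest of all members at 20.3. Without added tags, members with 1 WT tag could stand above these folds, the highest at 146709309 with 46.5 Mll-PTD tags and a ratio of 46.5 (8.05 to 1867). A count of 0 or 1 in such short regions is a weak statement at this depth.

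Members of low and high ratio could be neighbours. In the same ranking, the 3 lowest members at or above the list's median tag count had ratios of 4 at 145458589 (48 Mll-PTD and 12 WT tags, 2.14 to 8.15), 4.09 at 146497565 and 4.19 at 145354025. Without added tags the next lowest after the first were 146198454 at 4.05 (2.32 to 7.57) and 145372439 at 4.06 (2.76 to 6.17). The region at 145458589 is the next one after 145457424, which had no WT tag. At the edges, the first 2 members started at 145046046 and 145050656, with 61.5 and 26.3 Mll-PTD tags and 12 and 0 WT tags. The last 2 started at 146994322 and 146997283, with 31.5 and 134 Mll-PTD and 7 and 13 WT tags. Just outside, the regions at 144988263 and 144989927 held 44.3 and 48.8 Mll-PTD and 4 and 7 WT tags. The first region past the upper edge, at 147004724, was 5080 bases long with 349 Mll-PTD and 63 WT tags, and so resembled the long members inside.

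The order of regions repeated itself within the block. To describe this, pairs of members of like length (within 15%) and at least 100 kb apart were counted by the distance between their midpoints. At one distance, 545358 bases, the spacings of 22 pairs lay within a range of 200 bases. The next most frequent distances were 866378 bases with 14 pairs, 168220 with 13 and 1134792 with 12. Over 9500 fixed steps of 200 bases the median was 1 pair, 99% of steps had 6 or fewer, and 2 steps had at least 10. Fixed steps can split a peak, so the highest of them held 18 pairs.

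**Figure D4:**
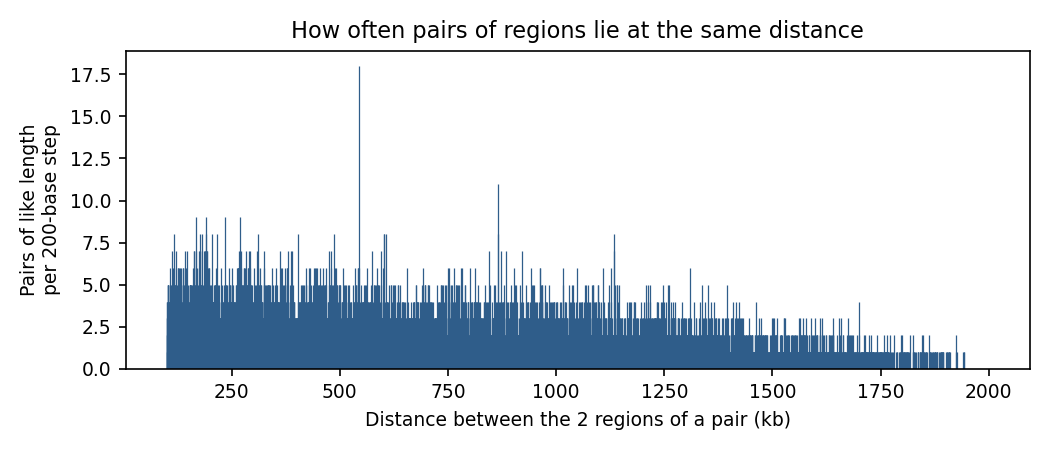
Number of pairs of members of like length (vertical axis) per 200-base step of the distance between them in kb (horizontal axis). The step near 545 kb stands at 18 pairs, and the median step holds 1.

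Only the 6 most frequent distances in direct order and the 4 most frequent matches in mirrored order were examined. For each, only the run with the most pairs was taken. A repeated layout was kept where at least 5 such pairs lay in that run and at least 50% of its regions had a partner within 300 bases of the matching position. At 545.4 kb the stretch from 145831120 to 145962344 had partners for 29 of its 34 regions (85.3%) in the stretch from 146376489 to 146507696. Over 4501 evenly stepped distances, 6.58% to 20.7% of members across the whole block had a partner within the same 300 bases. The distances tried include ones near 545.4 and 866.4 kb. Each stretch was instead bounded by its own pairs, so its share and this whole-block range are not like for like. At 866.4 kb, 9 of 11 regions from 145354025 to 145386585 had a partner, and at 1134.8 kb 14 of 19 from 145370629 to 145439667. The distance of 168220 bases was not kept, because 29.0% of its regions had a partner. In 2 further layouts the order was mirrored. The stretch from 145333720 to 145417850 read backwards matched 145540396 to 145624661 for 13 of 26 regions, and 145576400 to 145615826 matched 146208925 to 146248246 for 9 of 13. These stretches overlap, so like layouts of regions appeared in several places of the block and in both orders. The sequence of the mm9 regions was not read, so the likeness is of position and length alone.

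Partners of like length held similar numbers of tags. In the layout at 545.4 kb, the 20 pairs of like length summed to 2122 and 2106 unscaled Mll-PTD tags and to 227 and 238 WT tags. Their ratios were 7.01 (6.11 to 8.08) and 6.64 (5.80 to 7.62), and the intervals overlap. The longest pair, chr4:145857476-145863718 and chr4:146402848-146409048, was 6242 and 6200 bases long with 448 and 441 unscaled Mll-PTD tags. A second pair, at 145868371 and 146413728, was 2792 bases long in both places, with 230 and 243 unscaled Mll-PTD tags and 29 and 33 WT tags. In these pairs, regions far apart resembled each other in both libraries.

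**Figure D5:**
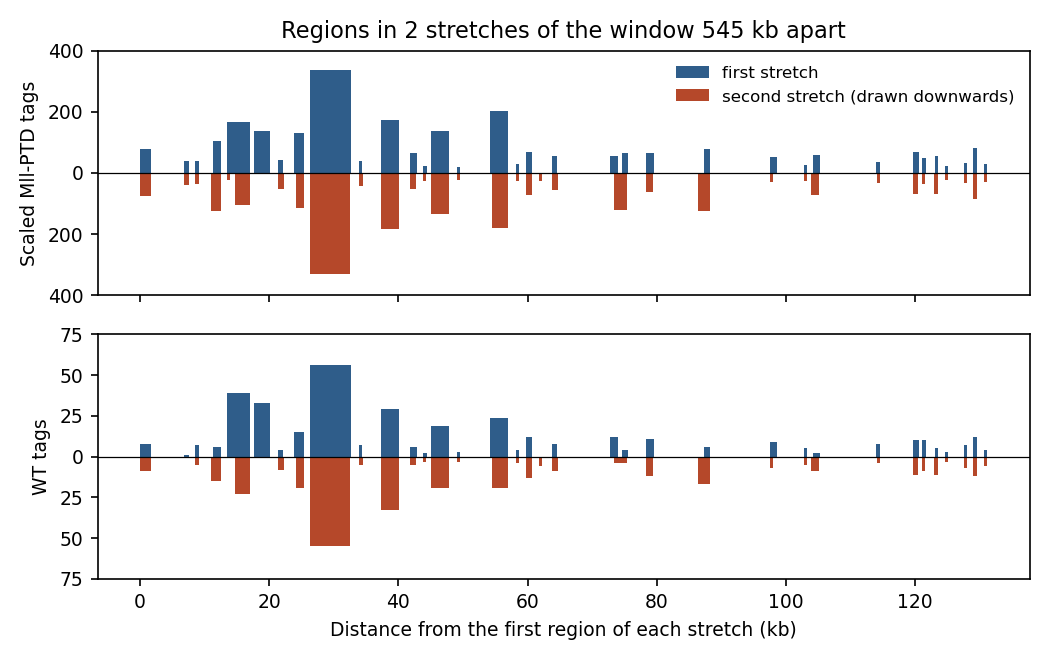
Scaled Mll-PTD tags (top) and WT tags (bottom) of each region in the 2 stretches 545 kb apart, by distance in kb from the first region of each stretch, with the first stretch drawn upwards and the second downwards. Bar width is region length, and 29 of the 34 regions of the first stretch have a partner in the second, the tallest holding 336 and 331 Mll-PTD tags.

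One run of 4 regions, picked from the results for display, shows the same in 3 places. Starting at 145396853, the regions were 627, 2374, 3574 and 2401 bases long and held 41.3, 192, 200 and 116 Mll-PTD tags. Starting at 146531637 they were 629, 2384, 3589 and 2407 bases long and held 40.5, 182, 195 and 119. The WT tags were 7, 22, 26 and 21 in the first place and 7, 22, 25 and 24 in the second. In the mirrored stretch the 3 longer regions, at 145557024, 145551970 and 145546153, were 2363, 3574 and 2408 bases long and held 184, 200 and 122 Mll-PTD tags and 19, 26 and 24 WT tags. A further region at 145549234, with 22.5 Mll-PTD and 2 WT tags, lay between the last 2 of these and had no partner. The matched regions differed between places by at most 10 Mll-PTD tags and 3 WT tags.

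Partners of like length were closer in tags than separate counting would give, and partners taken by position alone were so in some layouts. The squared difference of a pair's unscaled tags divided by their sum averages 1 for independent counts with the same mean. Over partners of like length it averaged 0.259 for Mll-PTD and 0.324 for WT over the 20 pairs at 545.4 kb, 0.0676 and 0.472 over 7 pairs at 866.4 kb, and 0.168 and 0.175 over 11 pairs at 1134.8 kb. In the mirrored layouts it was 0.440 and 0.413 over 11 pairs and 0.400 and 0.0458 over 5 pairs. With all partners by position, whatever their length, it was 0.854 and 0.567 over 29 pairs at 545.4 kb, 0.586 and 0.586 over 9 at 866.4 kb, and 3.64 and 1.05 over 14 at 1134.8 kb. In the mirrored layouts it was then 0.549 and 0.531 over 13 pairs and 0.610 and 0.393 over 9. Adjacent members of like length, by contrast, gave 3.51 and 2.01 over 58 pairs, and all pairs of like length in the block 3.67 and 2.26 over 15524. The pairs were chosen by position and length, both of which come from the Mll-PTD tags, so the limit on length also removes pairs with unlike tags. The WT tags were not used in the pairing, but the caller's required fold of 4 limits the WT tags of each member by its Mll-PTD tags. Partners with like Mll-PTD tags thus share nearly the same limit on WT tags. The layouts share regions and are not independent. Whether the tags of 2 partners are separate measurements, and how far the placing of reads set this likeness, was not tested.

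Partners and matching places also differed in part. In the layout at 545.4 kb, the partners at 145935331 and 146480461 (chosen after their values were seen) held 2 and 9 WT tags. Their ratios were 29.65 and 7.92, while the median absolute difference in log2 ratio over all 29 pairs was 0.173. The region at 146449886 (also chosen after its values were seen) had no partner within 300 bases. It was 2085 bases long with 121 Mll-PTD and 4 WT tags, a ratio of 30.2 (11.6 to 112). Near the matching position in the first stretch lay 2 regions instead. These were at 145903834 with 54 Mll-PTD and 12 WT tags (4.5, 2.43 to 9.12) and at 145905707 with 65.3 and 4 (16.3, 6.15 to 61.2). The region at 145903834 began before the matching position. The Mll-PTD tags of these 2 regions together came close to those of the single one, and their WT tags were more. The 2 places do not span the same bases, so these counts are not like for like.

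Members with and without a partner in a kept layout had nearly the same ratio. The 125 members with such a partner had a summed ratio of 6.73 and the 299 others 6.82. The others are not free of matches. For example, those at 146362186 and 146530403 matched in a layout that was not kept. No WT tag was found in 2.40% of the first (0.498% to 6.85%) and in 8.36% of the second (5.48% to 12.1%), and these intervals overlap. The summed ratio of the members outside these layouts was thus also below that of the rest of chromosome 4.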

How the data were processed

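H3K4me3 tags of 1 WT and 1 Mll-PTD library were compared by the authors. Bowtie 0.12.7, HOMER 4.7 and mm9 are named, per the submitters' processing notes. Per the file headers, HOMER called regions in histone style on Mll-PTD tags with WT in the place of an input, with peaks of 500 bases, a false discovery rate of 0.001, a fold of 4 and a Poisson p-value of 0.0001, so that the list holds no region higher in WT. As signal, the authors deposited WT tags as they are, with 0.5 standing for 0, and Mll-PTD tags scaled to WT depth. The fold (a ratio), the p-value, the peak score and the clonal fold score are the authors' deposited values, and the p-value is no test between genotypes.

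Unscaled Mll-PTD tags were recovered by dividing by 0.750, which gave whole tags within 0.1 for 99.995% of regions. Ratios carry exact conditional binomial intervals and shares exact Clopper-Pearson intervals, and log2 ratios have 1 tag added to either library. With 1 library per genotype no test was made. The members, the motif and the lists were chosen with earlier results of these data known. Regions were named by a fixed rule: the 6 with most tags, the 5 highest and 3 lowest log2 ratios (1 tag added to either library) among regions at or above the list's median of 29.3 tags, the 5 longest, the 5 with no WT tag and most Mll-PTD tags, the 2 nearest each edge on either side, and the longest gap. The search for repeated layouts was made after seeing the data. On simulated data of 424 regions, a planted distance of 600000 bases came back as 600007. The simulated ratio was 7, and higher in 200 of the regions, and 97.9% of intervals held the ratio of their own region. Tools were scipy 1.17.1, pandas 2.3.3, numpy 2.4.6, edlib 1.3.9.post1 for sequence identity and matplotlib 3.10.9, under Python 3.11.15.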

Additional observations from a re-analysis of the deposited data

How the results depend on the processing

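No paired analysis was possible because there is only 1 library of either genotype. Of 50 alternatives, 38 left the value within its interval or, for a count, within 1.5 times, and 12 moved it. For the median log2 ratio the interval, 2.57 to 2.71, came from the spread among members taken as independent, not from tag counting. The same width was used for the difference of that median from the rest of chromosome 4. The median log2 ratio of the block, 2.64, was 2.24 with 5 tags added, 2.72 with 0.5 added and 2.55 in regions of 500 bases. Its difference from the rest of chromosome 4, 0.00, was 0.22 with 5 tags added, 0.066 in regions with a WT tag, 0.10 in regions of 500 bases, -0.091 in regions at or above the list's median tag count and -0.10 in regions of at least 1000 bases, so its sign depended on the regions taken. The share with no WT tag, 6.60%, was 18.1% in regions of 500 bases, 0.613% in those of at least 1000 bases and 1.55% in those at or above the median tag count. Regions per Mb fell from 212 to 81 with a fold of at least 8. The summed ratio, 6.79, was 6.95 in the first 1000 kb, 6.66 in the second 1000 kb and 7.0 without the 10 regions with most tags. A window running 300 kb further and leaving out members with a partner in a kept layout were chosen after seeing the data. So was leaving out the 2 long regions of lowest ratio (summed ratio 6.92). These alternatives moved no value past those limits. With a median of 7 WT tags per member, depth limits the ratio of single regions.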
